A study of Arabidopsis thaliana with 6 samples.

Results

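The plastid genome of Arabidopsis thaliana encodes core subunits of the photosynthetic machinery, and 33 of these genes were followed here. They are 5 genes of photosystem I, 15 genes with a photosystem II symbol, 6 of the cytochrome b6f complex, 6 of the ATP synthase, and rbcL, the gene of the large subunit of Rubisco. They were chosen by symbol (psa, psb, pet, the 6 atp genes and rbcL) and by their place on the plastid genome. The rule itself used no measured value, but it was set with earlier results of these data known. Each of the 33 has 1 probe set of its own. Of 22746 tested probe sets, 13436 name 1 gene of the RefSeq gene table, and these include 36 further plastid genes. The ndh, rps, rpl and rpo genes and all mitochondrial genes are not among the 33.

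Signals were measured in the aerial parts of 30-day-old plants of the epiF3 line (3 arrays) and of the Col-0 wild type, called WT (3 arrays), both of the Col-0 ecotype and grown in soil mix. Titles call the arrays biological replicates. The description field of the epiF3 samples instead names albino plants of an msh1 mutant, a difference in naming that the labels leave unexplained. MSH1 encodes a MutS homologue found in plastids and mitochondria, and how the epiF3 line was derived is not stated in the labels. The labels give no batch.

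Photosystem II splits water and reduces plastoquinone, the cytochrome b6f complex passes the electrons to plastocyanin, photosystem I uses light again to reduce ferredoxin, and the ATP synthase makes ATP from the resulting proton gradient. Each complex is a mosaic of plastid-encoded and nuclear-encoded subunits. Plastid genes are mostly transcribed in groups by a bacterial-type polymerase, and the long precursors are cut and protected by RNA-binding proteins of nuclear origin. A probe set reads every precursor and product that holds its sequence. Plastid messages largely lack the stable poly(A) tails from which expression arrays of this kind are usually labelled, so a signal need not scale with the amount of the message. The labels do not name the primer used. A change in the number of plastids or green cells and a change in RNA per plastid cannot be told apart in such samples.

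None of the 33 genes passed the threshold of an adjusted p under 0.05 (limma, Benjamini-Hochberg over all 22746 probe sets), which 0.598% of all probe sets did (0.268% higher and 0.33% lower in epiF3). At an unadjusted p under 0.05 there were 6 of 33 genes (18.2%), against 10.9% of all probe sets: psaC, psbC and psbD with higher values in epiF3, and psbK, psbI and atpA with lower values. The 3 epiF3 arrays and the 3 WT arrays did not overlap for 6 genes (18.2%), against 16.9% of all probe sets. Of these, psaC, psbC and psbD were higher in epiF3, as were 9.75% of all probe sets, and psbK, psbL and atpA lower, as were 7.11%. Genes with separate arrays were thus about as frequent among the 33 as on the whole array. Differences are epiF3 minus WT on the log2 scale throughout, and ran from -1.68 for atpA to 0.83 for psbD.

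**Figure D1:**
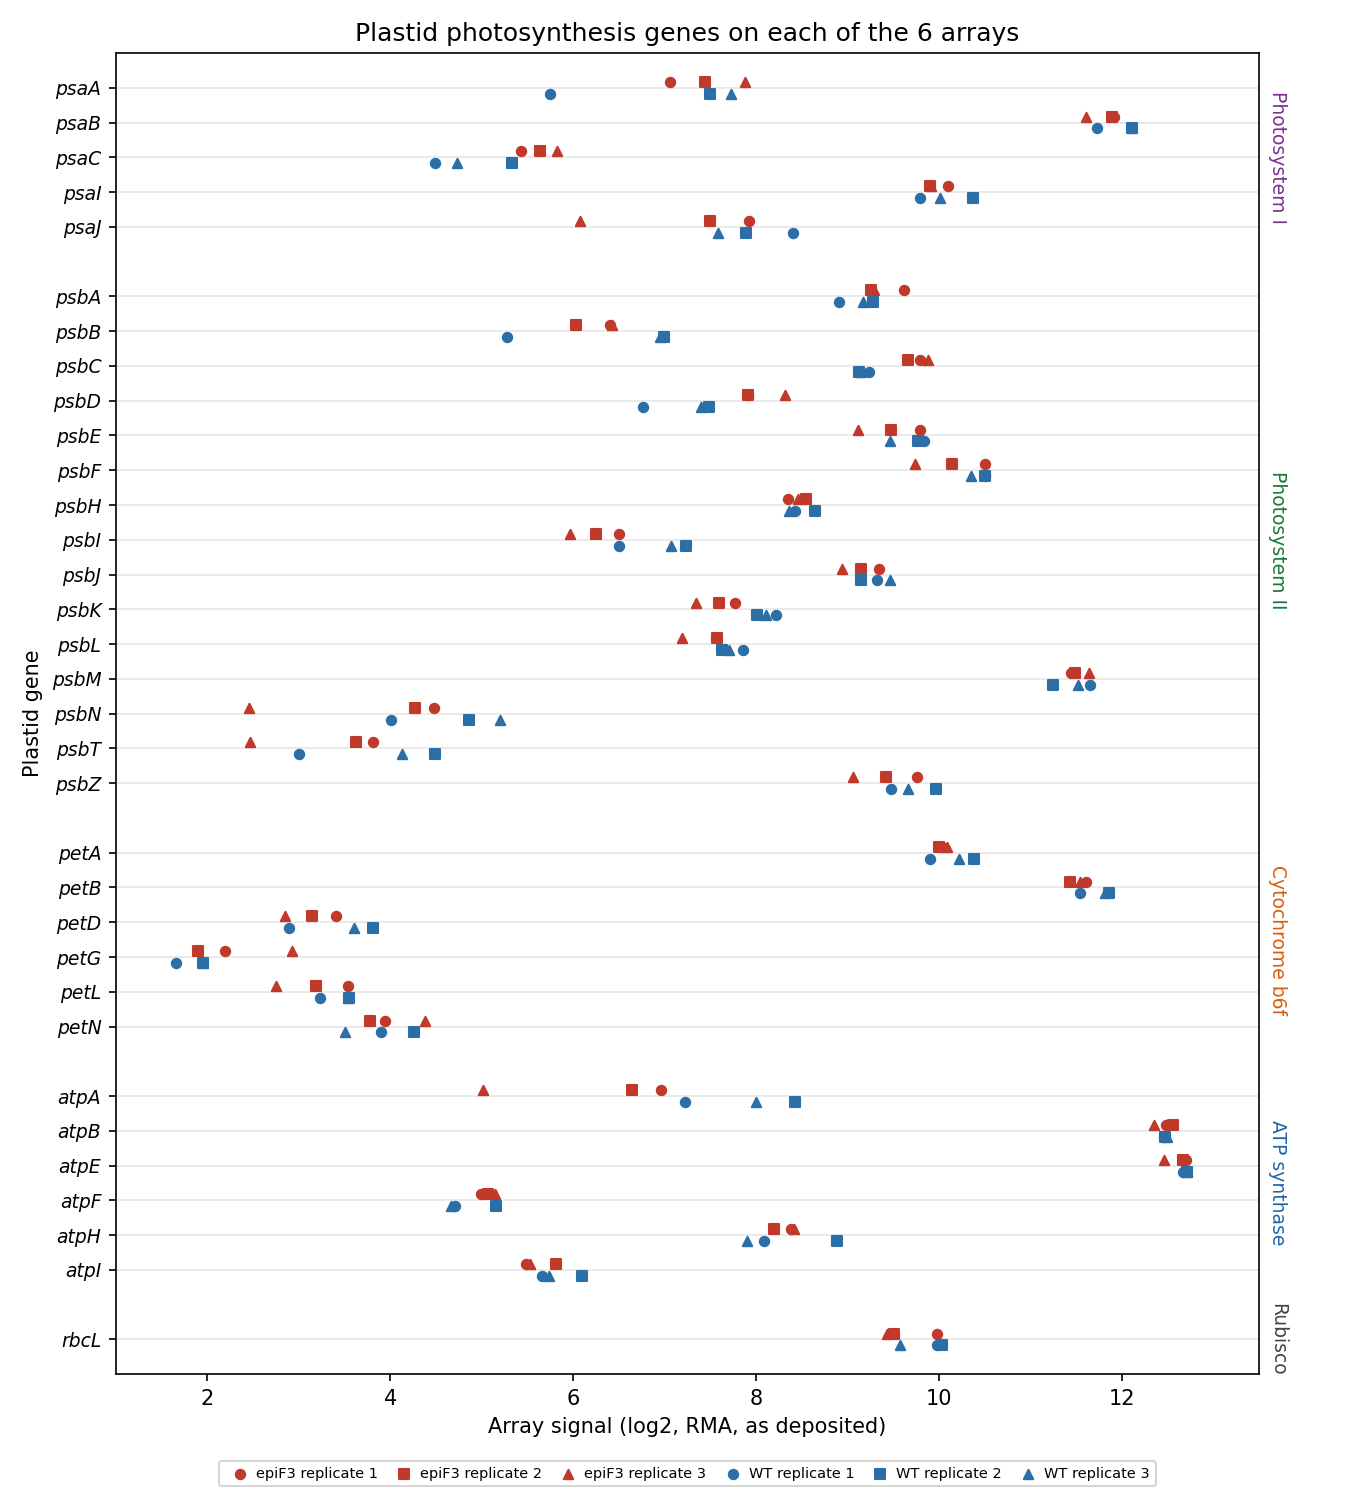
Deposited log2 array signal (x axis) of each of the 33 plastid genes (rows, grouped by complex) on every array, with epiF3 arrays above WT arrays in each row and a marker for each replicate. The arrays of psbC and psbD do not overlap between groups, and atpA has its lowest value, 5.01, on epiF3 replicate 3.

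Of the 33 genes, 23 had differences below 0 (69.7%, against 44.3% of all probe sets), with a median of -0.17, beside 0.030 over all probe sets. The median stayed below 0 under each of the 4 other scalings, between -0.18 and -0.052. It was 0.022 with the level of the hybridization controls as a covariate. Without epiF3 replicate 3 it was -0.078, and without WT replicate 2 it was -0.090. Since the genes share precursors and arrays, the count is a description with no test of its own. The 95% limma intervals of 23 genes lay within a 2-fold change either way (69.7%, against 89.1% of all probe sets), which bounds those differences at that size before any adjustment for the number of genes. The intervals of the other 10, namely psaA, psaC, psaJ, psbB, psbD, psbI, psbN, psbT, petG and atpA, reached beyond it.

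The highest positive differences of photosystem II were those of a reaction centre gene and an inner antenna gene. psbD, which encodes the D2 protein of the reaction centre, had log2 signals of 7.92, 7.91 and 8.31 in epiF3, against 6.77, 7.49 and 7.40 in WT. All 3 epiF3 arrays lay above all 3 WT arrays, and the difference was 0.83 ± 0.22 (SE), with an adjusted p of 0.185 in limma. psbC, which encodes the inner antenna protein CP43, had signals of 9.79, 9.66 and 9.87 in epiF3, against 9.23, 9.13 and 9.14 in WT. These arrays did not overlap either, and the difference of 0.61 ± 0.12 (SE) had the smallest adjusted p among the 33 genes, 0.0910 in limma. Its signal stands for a ratio of 1.52, with a 95% interval of the log2 difference from 0.32 to 0.89. With array weights psbC passed the threshold (0.57, limma adjusted p = 0.0439), while its adjusted p was 0.0439 to 0.456 over the 17 alternatives. psbD and psbC lie next to each other, share a transcript and overlap in their reading frames. psbZ, a small subunit gene that follows them, had a difference of -0.29 ± 0.21 (SE).

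For psbA and psbB, genes of other core proteins of photosystem II, the intervals included 0. psbA, which encodes the D1 protein that is replaced after light damage, had signals of 9.62, 9.25 and 9.29 in epiF3, against 8.91, 9.28 and 9.17 in WT. The groups overlapped, with a difference of 0.27 ± 0.16 (SE) and an interval from -0.10 to 0.64. psbB, which encodes the inner antenna protein CP47, had a difference of -0.12 with the wide interval of -1.11 to 0.88. Its WT arrays alone spread from 5.27 on replicate 1 to 6.99 on replicate 2, so a difference of this size was not detectable for psbB.

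Most genes of small photosystem II subunits had negative differences. psbK had signals of 7.77, 7.60 and 7.34 in epiF3, against 8.21, 8.01 and 8.11 in WT, with no overlap and a difference of -0.54 ± 0.15 (SE, limma adjusted p = 0.210). The neighbouring psbI, transcribed with psbK, had a difference of -0.70 ± 0.22 (SE, limma adjusted p = 0.282). One epiF3 array and 1 WT array of psbI hold the same deposited value, 6.50, so its groups touch. Shared values also occurred for psbF, at 10.50 on epiF3 replicate 1 and WT replicates 1 and 2. For atpE they occurred at 12.71 on WT replicates 2 and 3. Both psbK and psbI encode single-helix proteins of the photosystem II core, and neither passed the threshold.

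psbE and psbF encode the subunits of cytochrome b559, and with psbL and psbJ, small subunits needed for electron transfer and assembly, they form 1 transcribed group. Differences of the 4 genes were close together, at -0.23 for psbE, -0.33 for psbF, -0.29 for psbL and -0.17 for psbJ. psbL was the only one of them whose arrays did not overlap, with 7.56, 7.57 and 7.19 in epiF3, against 7.86, 7.62 and 7.71 in WT. The margin was small, since the highest epiF3 array of psbL lay at 7.57 and the lowest WT array at 7.62. On epiF3 replicate 3 all 4 genes had their lowest value of the 6 arrays. When that array was left out the differences were -0.054 for psbE, -0.13 for psbF, -0.16 for psbL and -0.067 for psbJ.

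psbN, which encodes an assembly factor of photosystem II (known from tobacco) and no subunit, had signals of 4.48, 4.27 and 2.45 in epiF3, against 4.01, 4.86 and 5.20 in WT. It had the most negative value of the complex, -0.95 ± 0.54 (SE, limma adjusted p = 0.583), and its groups overlapped. Without epiF3 replicate 3 the difference of psbN was -0.31. psbT, a small subunit at the dimer interface, had a difference of -0.57 ± 0.45 (SE) and also lay lowest on epiF3 replicate 3, at 2.47. The psbT difference was -0.15 without that array. Values of psbM (0.056) and psbH (-0.026), both small subunits, were within 0.06 of 0, and psbH turned to 0.046 with centred array medians and to 0.090 with centring on the other plastid genes.

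**Figure D2:**
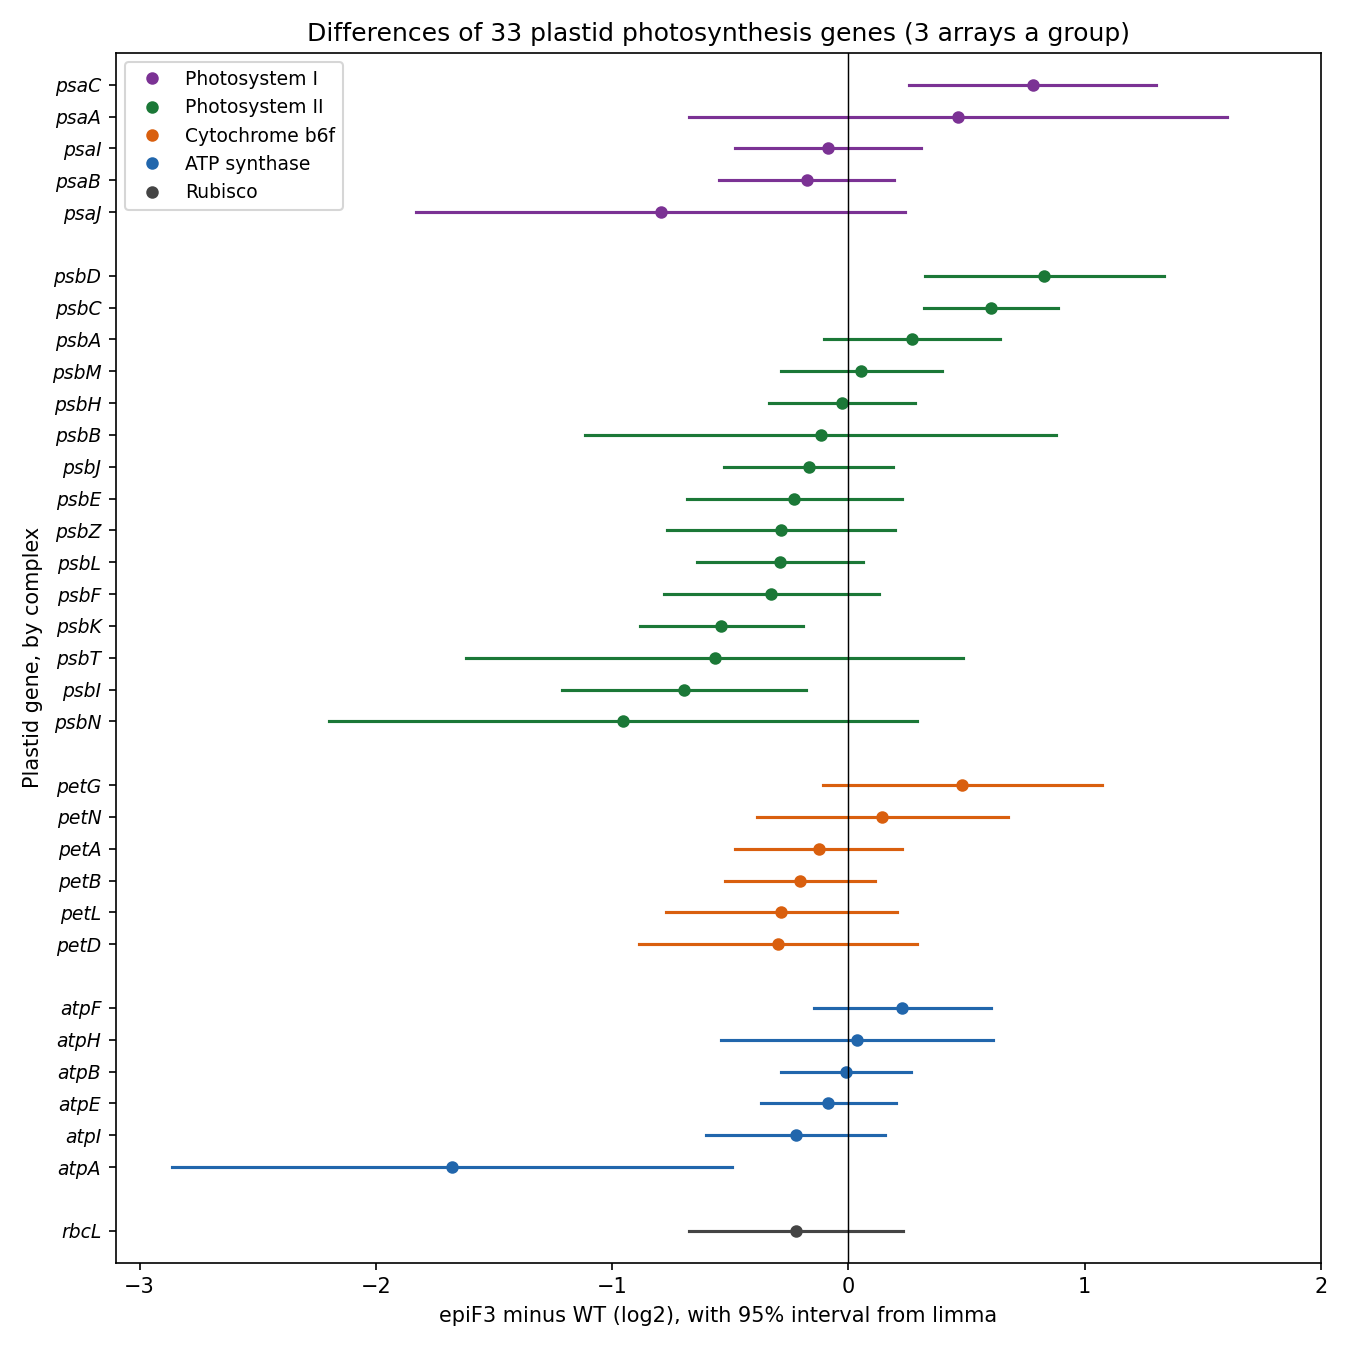
Difference in log2 signal between epiF3 and WT (x axis, point) with its 95% limma interval (bar) for each gene, ordered within its complex, with 3 arrays a group. Intervals of 6 genes lie to one side of 0 before adjustment: psaC, psbD and psbC above it, and psbK, psbI and atpA below it.

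In photosystem I, as in each of the other complexes, the genes did not move in 1 direction. psaC, which encodes the subunit that carries the terminal iron-sulfur clusters, had signals of 5.43, 5.64 and 5.82 in epiF3, against 4.49, 5.33 and 4.73 in WT. The groups did not overlap, and the difference was 0.78 ± 0.23 (SE, limma adjusted p = 0.229). psaJ, a small subunit at the docking side for plastocyanin, had signals of 7.92, 7.49 and 6.08 in epiF3, against 8.40, 7.89 and 7.59 in WT. Its difference of -0.79 ± 0.45 (SE, limma adjusted p = 0.582) rested largely on epiF3 replicate 3 and was -0.25 without that array.

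psaA and psaB encode the 2 large proteins that form the reaction centre of photosystem I and are transcribed together. psaA had signals of 7.05, 7.44 and 7.87 in epiF3, against 5.74, 7.50 and 7.73 in WT. WT replicate 1 stood far below the other WT arrays, and the psaA difference of 0.47 became -0.16 without it. psaB had a difference of -0.18 ± 0.16 (SE) and a WT SD of 0.22 (n = 3), against 1.09 for psaA. psaI, a small subunit, had a difference of -0.087, which became 0.029 with centring on the other plastid genes.

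The 6 genes of the cytochrome b6f complex included none with separate groups. petA, which encodes cytochrome f, had a difference of -0.13 ± 0.15 (SE), petB, which encodes cytochrome b6, one of -0.21 ± 0.14 (SE), and the intervals of both lay within a 2-fold change. petD, which encodes subunit IV, had signals of 3.41, 3.15 and 2.85 in epiF3, against 2.89, 3.81 and 3.60 in WT, a difference of -0.30 ± 0.25 (SE). The petD groups overlapped widely.

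petG, petL and petN encode small subunits of the same complex. petG had signals of 2.19, 1.90 and 2.93 in epiF3, against 1.66, 1.95 and 1.95 in WT, and the positive difference of 0.48 ± 0.26 (SE, limma adjusted p = 0.561) was the largest of the complex. The petG difference was 0.19 when epiF3 replicate 3 was left out, and 0.017 with the level of the hybridization controls in the fit. On 5 of 6 arrays petG lay in the lowest 25% of signals, where the size of a change is uncertain. Whether the petG difference is understated there or is background noise was not tested. petL had a difference of -0.28 and petN one of 0.14. petN was at -0.097 with array weights.

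atpA, which encodes the alpha subunit in the catalytic head of the ATP synthase, had signals of 6.96, 6.65 and 5.01 in epiF3, against 7.23, 8.43 and 8.00 in WT. All epiF3 arrays lay below all WT arrays, with means of 6.21 ± 1.05 in epiF3 and 7.88 ± 0.61 in WT (SD, n = 3 each). The difference of -1.68 ± 0.51 (SE) was the largest in size of the 33 genes, and its adjusted p was 0.258 in limma. The atpA difference was -1.08 when epiF3 replicate 3 was left out, and -0.67 with the level of the hybridization controls in the fit. With each array centred on the median of the 36 other plastid genes, a scaling that puts the median of all probe sets at 0.15, against 0.030 as deposited, the atpA difference was -1.56 and passed the threshold (limma adjusted p = 0.0271). Over the 17 alternatives the adjusted p of atpA was 0.0271 to 0.851.

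The other 5 ATP synthase genes had small differences, including those transcribed with atpA. atpF, which encodes a stalk subunit, had signals of 4.99, 5.07 and 5.15 in epiF3, against 4.71, 5.16 and 4.67 in WT, and its difference of 0.23 ± 0.16 (SE) was the highest of the complex. atpH, which encodes the subunit of the rotor ring, had a difference of 0.037, and atpI, which encodes the membrane subunit of the proton channel, one of -0.22. Across atpI, atpH, atpF and atpA, neighbours in this order on the plastid genome, differences spanned 1.91 log2 units.

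atpB and atpE encode the beta and epsilon subunits of the same head and form a transcribed pair of their own. atpB had a difference of -0.010 (interval -0.29 to 0.27) and atpE one of -0.085 (interval -0.37 to 0.20). The WT arrays of atpB spanned 0.032 log2 units and those of atpE 0.040. Both have signals above 12 on all arrays, close to the upper end of the scale, where array signals can level off. atpB was at 0.061 with centred array medians, 0.092 with quantile normalization and 0.11 with centring on the other plastid genes. atpE was at 0.031 with the last of these.

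rbcL, transcribed away from atpB, had signals of 9.98, 9.51 and 9.43 in epiF3, against 9.98, 10.03 and 9.57 in WT. The groups overlapped, with a difference of -0.22 ± 0.20 (SE), an interval from -0.68 to 0.23 and an adjusted p of 0.710 in limma.

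**Figure D3:**
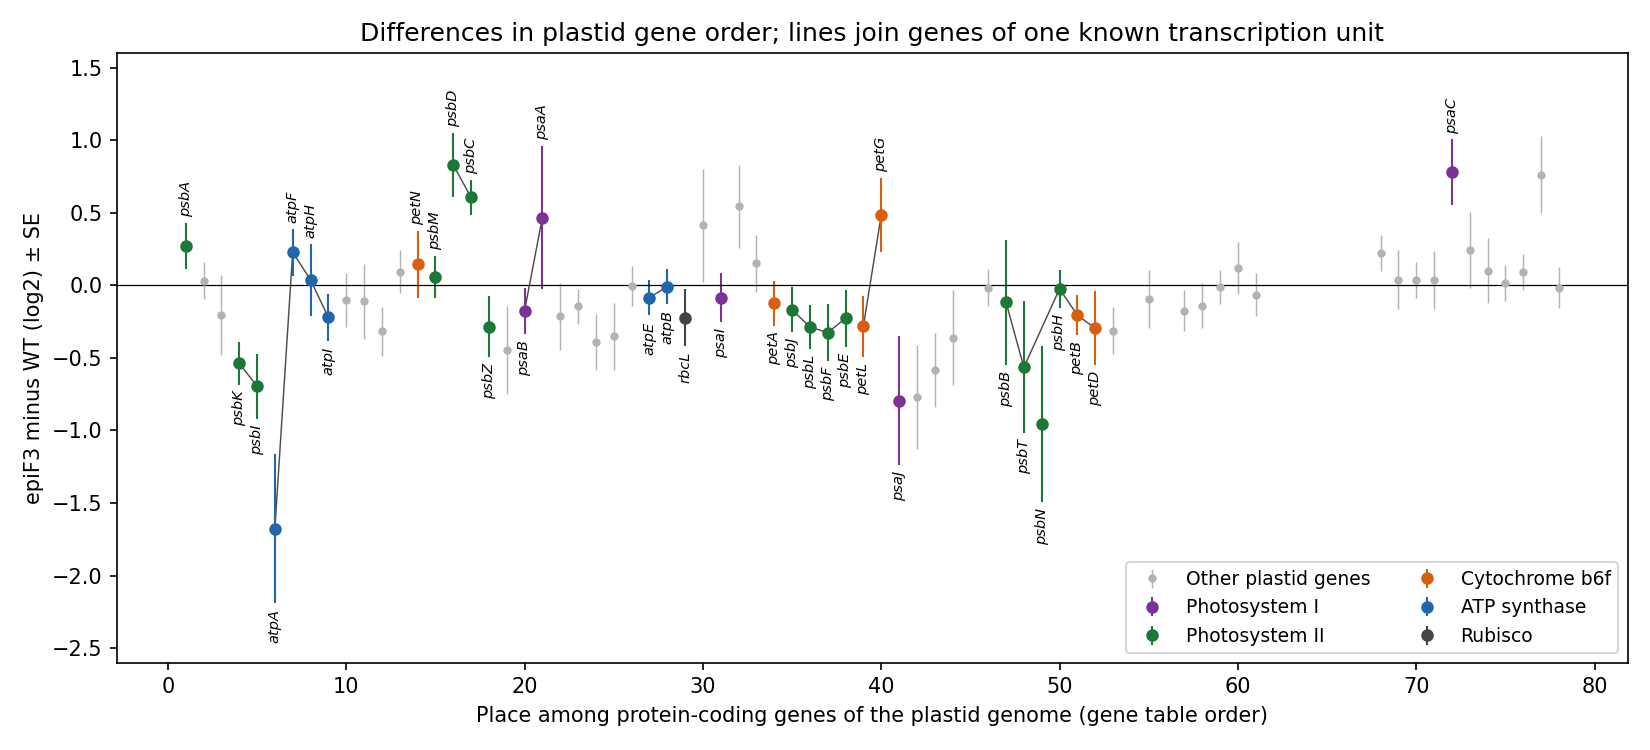
Difference in log2 signal (y axis, point with SE bar) of each measured plastid gene against its place among the protein-coding genes of the plastid genome (x axis), coloured by complex, with the 36 other plastid genes in grey. Thin lines join genes of a known transcription unit: psbD and psbC lie at 0.83 and 0.61, the psbE group at -0.33 to -0.17, and the atp group spans 1.91.

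Set side by side, genes known to be transcribed together fell into close and spread groups. Neighbourhood was taken from the order of genes in the gene table, which gives no strand, and shared transcription from textbook knowledge. The 2 genes of atpB-atpE differed by 0.075 in their difference, the 4 of psbE-psbF-psbL-psbJ spanned 0.16, psbK-psbI 0.16 and psbD-psbC 0.22. psbZ, the next gene after psbC in the gene order, was not counted with psbD-psbC. Its difference of -0.29 had the opposite sign, so the closeness holds for the pair only. The 5 genes psbB, psbT, psbH, petB and petD all had negative differences that spanned 0.54, with psbN, read from the opposite strand, between psbT and psbH. The pairs psaA-psaB and petL-petG each held 1 positive and 1 negative difference and spanned 0.64 and 0.77. These spans were not tested against those of genes that are not neighbours.

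Between complexes, median differences were -0.087 in photosystem I (3 of 5 genes negative), -0.23 in photosystem II (11 of 15), -0.17 in cytochrome b6f (4 of 6) and -0.047 in ATP synthase (4 of 6). The order of complexes rests on medians between -0.23 and -0.047, while the median of a complex varied by more than that range between the WT arrays. For photosystem II the median deviation from the WT mean was 0.00025, -0.21 and -0.54 on the epiF3 arrays and -0.048, 0.16 and 0.050 on the WT arrays. For ATP synthase it was 0.0044, -0.024 and -0.17 on the epiF3 arrays and -0.15, 0.29 and -0.040 on the WT arrays, so that both groups overlap. With centred array medians the ATP synthase median was 0.024, and with centring on the other plastid genes it was 0.068 and that of photosystem I 0.029. No difference between these medians was thus larger than the spread of the median of 1 complex between WT arrays. That spread includes deviations which complexes share on an array. Complexes were not compared within each array, so their order was not tested.

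**Figure D4:**
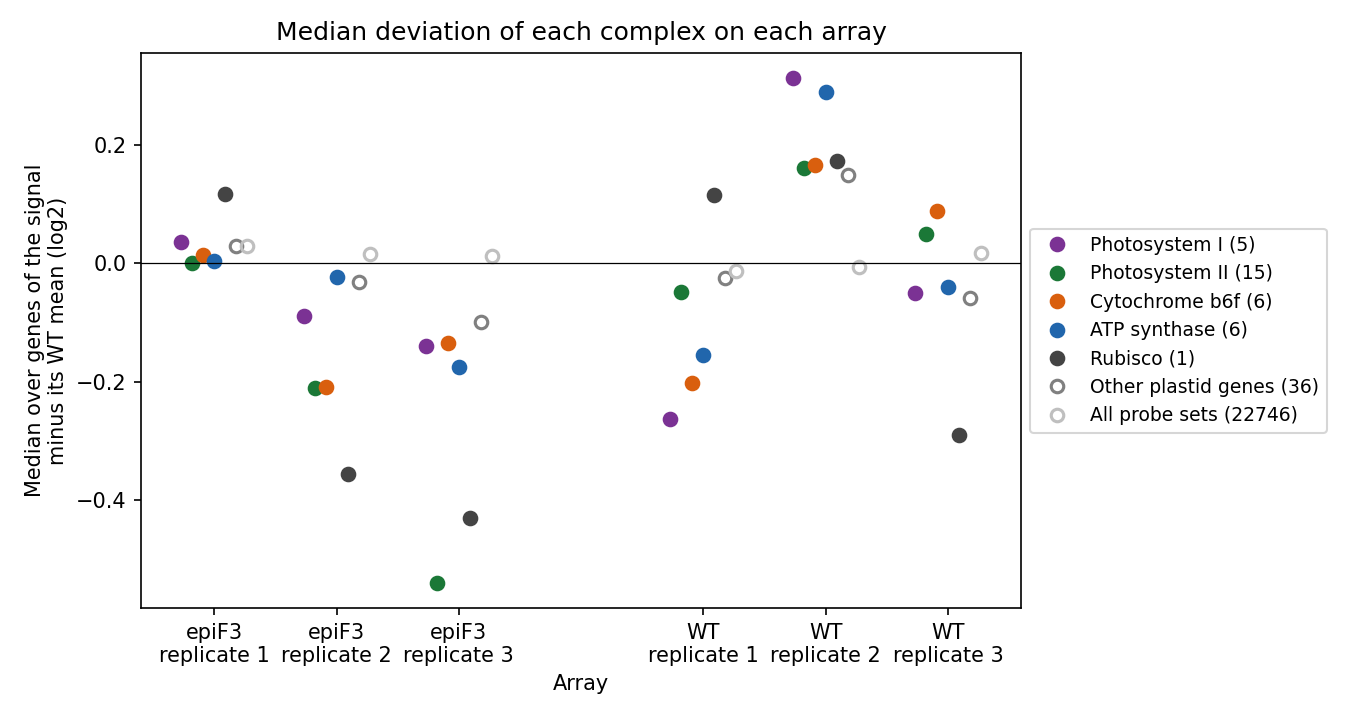
Median over the genes of a complex of the signal minus its WT mean (y axis, log2) on each array (x axis, epiF3 arrays on the left), with the number of genes in brackets. WT replicate 2 lies highest among WT arrays for every complex, and photosystem II lies at -0.54 on epiF3 replicate 3.

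Many of the 33 genes were high or low on the same arrays within each group. Their median deviation from the WT mean lay between -0.23 and 0.17 over the 6 arrays, beside -0.013 to 0.029 over all probe sets. For the 36 other plastid genes it lay between -0.099 and 0.15. In both plastid sets it was lowest on epiF3 replicate 3 and highest on WT replicate 2. WT replicate 1 held the lowest WT value for 20 of 33 genes (60.6%, against 36.8% of all probe sets), and WT replicate 2 the highest for 21 (63.6%, against 29.6%). epiF3 replicate 3 held the lowest epiF3 value for 17 of 33 (51.5%, against 41.5% of all probe sets), and epiF3 replicate 1 the highest for 18 (54.5%, against 31.9%). Yet epiF3 replicate 3 also held the highest epiF3 value for 11 of 33 (33.3%, against 38.1% of all probe sets), so it was not low throughout. Among the 36 other plastid genes, WT replicate 2 was highest for 23 and epiF3 replicate 1 highest for 22. WT replicate 1 was lowest for 17 of the 36 and epiF3 replicate 3 for 18. The median SD over arrays of the 33 genes was 0.22 in epiF3 and 0.25 in WT (n = 3 each), beside 0.18 and 0.15 over all probe sets.

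Hybridization controls, foreign transcripts added as a reference, averaged 10.5 on epiF3 replicate 3, against 7.11 to 8.36 on the other 5 arrays. That array correlated with each of the others at 0.961 to 0.982, against 0.973 to 0.994 among the others (Pearson, over probe sets, which do not count as replicates). Its weight in the fit with array weights was 0.30, against 0.71 to 1.86 for the others. The part of the hybridization on that array in the lower signals of atpA, psbN, psbT and psaJ was not tested beyond the fits given above. Of 19 leaf marker genes, RCA (12.70 in epiF3 and 12.73 in WT) and LHCB4.1 (11.85 in epiF3 and 12.11 in WT) were measured under a name, and none passed the threshold. Of 5 root markers, PYK10 (4.17 in epiF3 and 4.16 in WT), EXPA7 (2.52 in epiF3 and 2.29 in WT) and EXPA18 (3.19 in epiF3 and 2.96 in WT) were measured, with differences of 0.016 to 0.23 and none past the threshold. AMS, an anther gene, lay in the lowest 25% on all 6 arrays. In green tissue RCA and LHCB4.1 act in carbon fixation and in light harvesting.

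The 36 other plastid genes had a median difference of -0.017, with 21 negative and none past the threshold (limma). Of these, the 10 ndh genes had a median of 0.065, the 15 genes of ribosomal proteins one of -0.14 with 13 negative, and the 4 rpo genes one of -0.21. Nuclear genes of the same complexes were thinly covered. PSAE-1 (-0.11) and PSAN (-0.0062) of photosystem I, PSBW (-0.065) and PSBY (-0.18) of photosystem II, AT2G26500, listed with the cytochrome b6f complex (-0.057), and ATPC1, the gamma subunit gene of the ATP synthase (-0.0075), were measured, and none passed the threshold. Of 17 nuclear factors of plastid RNA processing, translation and stability, AT5G42310 (-0.37) and ATAB2 (-0.27) were measured, without passing it. No sigma factor of the plastid polymerase was among the named probe sets.

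**Figure D5:**
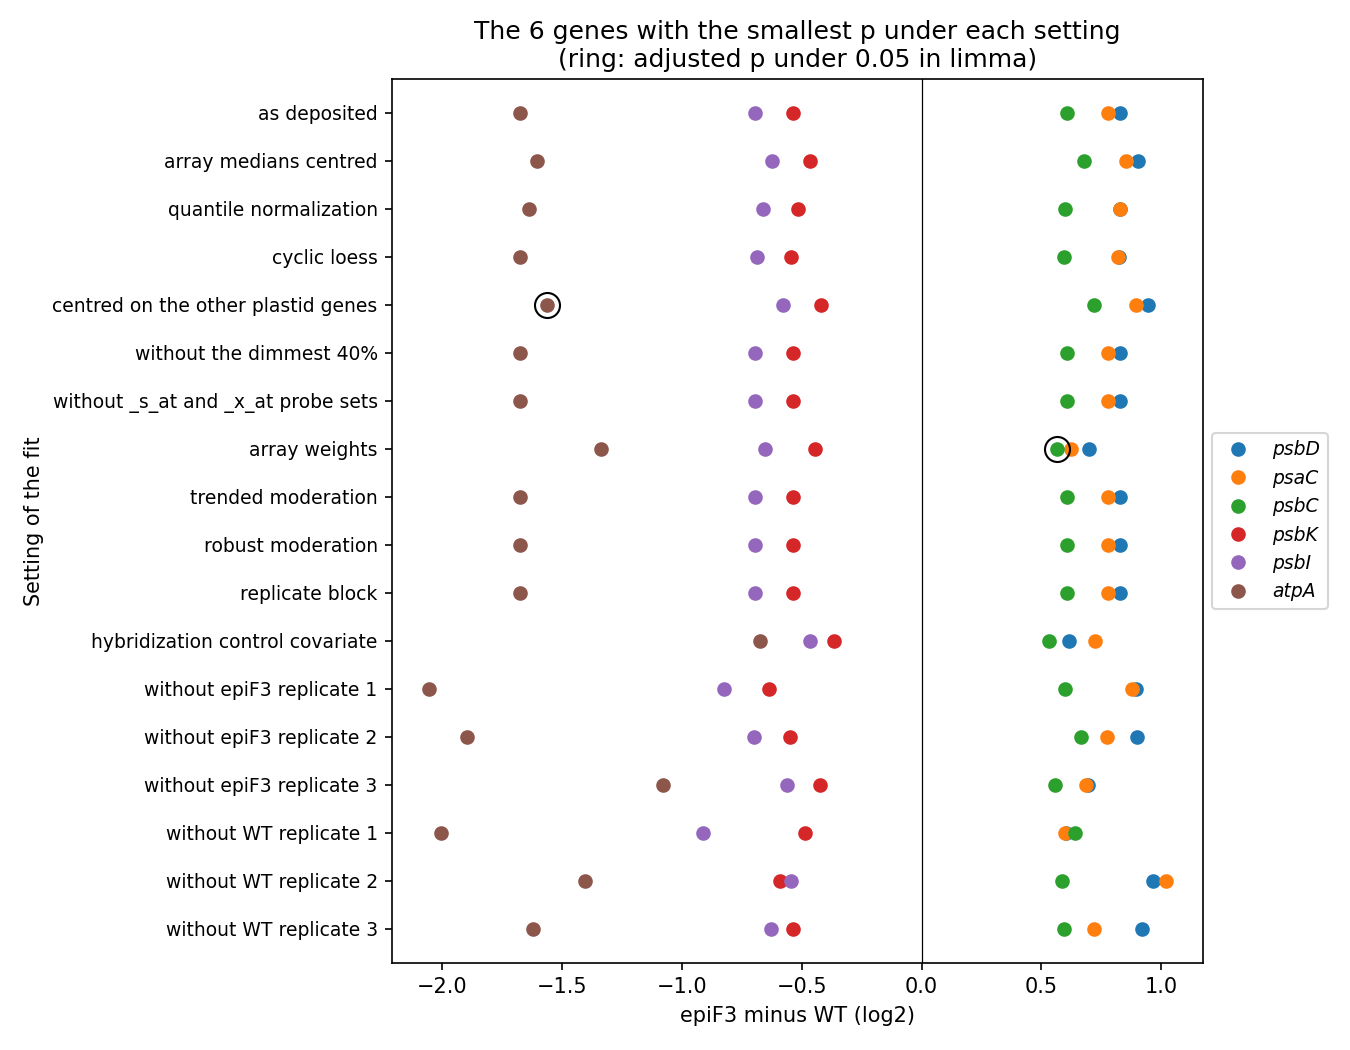
Difference in log2 signal between epiF3 and WT (x axis) of the 6 genes with an unadjusted limma p under 0.05, under each of 18 settings of the fit (rows, the deposited values first), with a ring where the limma adjusted p was under 0.05. The rings mark atpA with centring on the other plastid genes and psbC with array weights. All 6 keep their sign throughout, but they were chosen by their p in these same data. The moderation, block and filter settings cannot change a sign. Leaving out 1 array cannot either for these 6, whose groups do not cross.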

How the data were processed

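For each probe set the authors deposited a log2 value on every array, made by RMA (robust multi-array averaging) with affy, per the submitters' processing notes. Its version, background step and probe set definition are not given there. The deposited arrays are not equal in distribution, with medians of 4.08 to 4.32 and SDs of 2.16 to 2.27, so other scalings were tried. No detection calls were used, and the number of arrays limits the precision. Of 22810 probe sets, 64 array controls were left out. Genes were named through GEO's platform annotation and the RefSeq gene table of TAIR10.1, which also gave the gene order.

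The comparison used lmFit and eBayes of limma 3.58.1 (R 4.3.3), without a block and two-sided, and p-values were adjusted over 22746 probe sets by Benjamini-Hochberg, with a threshold of 0.05. The fit was tested on simulated data with independent noise for each probe set and array. Such data lack the deviations shared between genes of an array, so the test does not cover them. Tables were made in Python 3.11.15 with pandas 2.3.3. Alternatives were 4 scalings, 2 filters, array weights, trended and robust moderation, the replicate number as a block, a hybridization control covariate and leaving out each array. The genes, lists, tests and alternatives were chosen with earlier results of these data known. Every gene is named. Values on every array are given for the highest and lowest difference of each complex, the 3 smallest p, psbA and rbcL; those of psaA and psbL, and the WT range of psbB, were added after their values were seen. Deviations from the group means correlated at -0.077, -0.042 and -0.045 between arrays of the same number, so the numbers are not taken as pairs. Each p-value sets a difference between the groups against the spread between arrays of a group, as moderated by limma over all probe sets.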

Additional observations from a re-analysis of the deposited data

How the results depend on the processing

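With the hybridization control covariate, which partly overlaps with the groups, the median of the 33 genes was 0.022, that of photosystem II 0.016 and that of cytochrome b6f -0.016. The number of genes past the threshold was 1 with centring on the other plastid genes (atpA) and 1 with array weights (psbC), and 0 under the other 15 alternatives. With the replicate number as a block it was 0 of 33, and over all probe sets 74 passed, against 136 without it. Every replicate number has 1 array in each group, so the block cannot change a difference. The members' median is therefore -0.17 by design under it. Calls over all probe sets were 449 with array weights, 317 with centring on the other plastid genes, 24 with the covariate, and 33 without epiF3 replicate 2 to 402 without WT replicate 3. Leaving out 1 array gave a median of -0.22 to -0.078 for the 33 genes, -0.22 to 0.070 for photosystem I, -0.35 to -0.11 for photosystem II, -0.28 to -0.064 for cytochrome b6f, -0.12 to -0.0084 for ATP synthase and -0.39 to -0.12 for rbcL.

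Of the 33 genes, 17 kept their sign under every alternative, and 16 did not. Trended and robust moderation, the block and the filters leave each difference as it is, so they cannot change a sign. Leaving out 1 array cannot either for genes whose groups do not overlap. The count of kept signs thus rests on the remaining alternatives only. With the covariate the sign changed for psbM (-0.085), psbZ (0.052), atpE (0.030), atpB (0.068), rbcL (0.049), psaI (0.018), psbF (0.023), psbE (0.12), petL (0.042), psaJ (0.16), psbT (0.13) and psbH (0.016). With array weights it changed for atpH (-0.15), petN (-0.097) and atpB (0.037). With centring on the other plastid genes it changed for atpE (0.031), atpB (0.11), psaI (0.029) and psbH (0.090). With centred array medians it changed for atpB (0.061) and psbH (0.046), and with quantile normalization for atpB (0.092). Leaving out 1 array gave -0.16 to 0.34 for atpH, -0.046 to 0.33 for petN, -0.059 to 0.14 for psbM, -0.16 to 0.84 for psaA, -0.056 to 0.044 for atpB, -0.22 to 0.070 for psaI, -0.68 to 0.18 for psbB and -0.086 to 0.059 for psbH. The filter on the dimmest 40% removed petD, petG and petL. The causes were not tested.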
